A study of Mus musculus with 16 samples.

Results

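The genes described here encode the extracellular metalloproteinases of the Mmp, Adam and Adamts families, the Adamts-like proteins, and the Timp inhibitors. They were taken by symbol from the protein-coding rows of the count table, which gave 48 of its 19457 genes, namely 11 Mmp, 13 Adam, 16 Adamts, 5 Adamtsl and 3 Timp genes. RNA came from the striatum of mice labelled WT (wild type) or GS, read here as carriers of the LRRK2 G2019S change named in the series title. WT intact and GS intact tissue had no injection. The groups WT 6 h, GS 6 h, WT 3 d, GS 3 d, WT 15 d and GS 15 d were taken at those times after ATP was injected into the striatum on one side. The dose was 0.8 µl of 500 mM ATP, a molecule released by damaged cells. Each of the 8 groups had 2 libraries, labelled as biological replicates, and 16 were used in all. Needle, volume and ATP cannot be told apart in the injury comparison. Age, strain and whether GS is a changed or an added gene copy were not given in the sources used here.

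Matrix metalloproteinases are zinc enzymes, made as inactive proforms, that cut collagens, laminins and other matrix and cell-surface proteins. Adams are membrane proteins, some of which shed ligands and receptors from cells, and Adamts enzymes are secreted and cut proteoglycans, procollagens and other matrix proteins. Timps bind the active site of these enzymes and block it. In injured brain the balance of both is studied for its part in opening of the blood-brain barrier, release of cytokines and remodelling of the matrix around neurons.

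The libraries held 49220578 to 63948110 counts. Levels are in CPM (read counts scaled to the TMM-normalised library size), and differences are edgeR log2 fold changes ± standard error, with p adjusted over all 18813 genes tested and 0.05 as the threshold. All 48 members passed the filter on low counts. The table lists only genes with 1 or more counts in every one of the 16 libraries, and Timp1, Mmp3, Mmp8, Mmp10, Mmp12, Mmp13, Mmp25, Adam28 and Adam33 among others are outside it and not analysed here. All 9 striatal projection neuron markers were present, with a summed level of 6270 to 10849 CPM per library. Cortical markers (7 of 8 in the table) differed between libraries of 1 group, with 208.1 CPM in WT intact replicate 1, 118.1 CPM in WT 6 h replicate 2 and 19.8 to 69.8 CPM elsewhere. The 9 choroid plexus and ependyma markers ran from 56.5 CPM in WT intact replicate 1 to 413 CPM in GS intact replicate 1. Lrrk2 had group means of 111 to 193 CPM, which check no label, since a change of 1 residue need not alter the level.

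Few members had changed at 6 h, and many more at 3 d and 15 d. In WT at 6 h 2 rose and 4 fell, 12.5% of the 48, beside 4.09% of all genes tested. For GS at 6 h 6 rose and 7 fell (27.1%, beside 13.8% of all genes). At 3 d 13 rose and 8 fell in WT (43.8%, beside 27.4%), and 14 rose and 8 fell in GS (45.8%, beside 35.1%). At 15 d 15 rose and 7 fell in WT (45.8%, beside 25.4%), and 21 rose and 8 fell in GS (60.4%, beside 37.1%). The shares of members were above those of all genes in each of the 6 comparisons, and this was not tested. By direction, rises and falls took 2.54% and 1.55% of all genes in WT and 7.47% and 6.37% in GS at 6 h. They took 14.7% and 12.7% in WT and 18.6% and 16.4% in GS at 3 d. At 15 d they took 14.2% and 11.2% in WT and 19.4% and 17.6% in GS. The median size of change, as the absolute log2 fold change, was 0.39 for members and 0.24 for all genes in WT at 3 d and 0.56 and 0.28 in GS at 3 d. At 15 d it was 0.36 and 0.24 in WT, and 0.54 and 0.28 in GS.

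**Figure D1:**
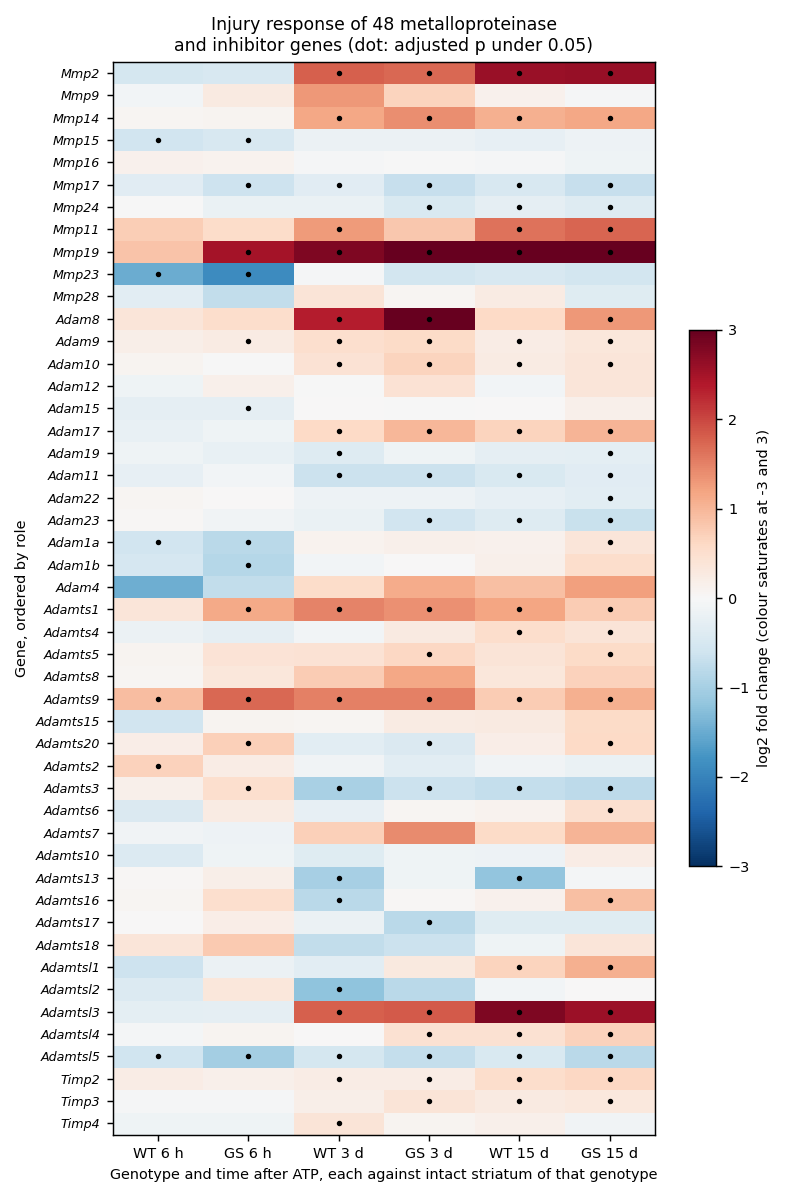
Log2 fold change of each of the 48 genes (rows, ordered by role) at 6 h, 3 d and 15 d after ATP against intact striatum of the same genotype (columns), with a dot where the adjusted p was under 0.05 and colour saturating at -3 and 3. Mmp19, Mmp2, Adamtsl3 and Adam8 hold the darkest red, and Mmp17, Adam11, Adamts3 and Adamtsl5 are blue at 3 d and 15 d in both genotypes.

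Calls differed in how far they rested on single libraries. Gene by gene below, losses are mainly those seen when 1 library was left out. Losses with marker scores as covariates or without several libraries are not all listed. In WT at 6 h none of the 6 calls held without each of the 4 libraries compared: 1 member was called without WT intact replicate 1, and 0 without the other intact replicate or either replicate of WT 6 h. At 3 d in WT 9 of 21 calls held in every alternative fit (Adam8, Adam9, Adam11, Adam17, Adamts1, Adamts3, Adamts9, Mmp14 and Mmp19), and 12 members were called without WT intact replicate 1. In WT at 15 d 6 of 22 held (Adam17, Adamts1, Adamts3, Adamtsl3, Mmp19 and Timp2), and 13 were called without either WT intact replicate and 12 without WT 15 d replicate 2. In GS 7 of 13 held at 6 h, where 8 were called without GS intact replicate 1, GS intact replicate 2 or GS 6 h replicate 1. For GS at 3 d 15 of 22 held, and at 15 d 18 of 29. Of the members that held, Mmp2, Mmp11, Mmp19, Mmp23 and Adamtsl3 were outside the filter that asks for 1 CPM in every library. They were tested in 13 alternatives and the others in 14. No call changed direction in any alternative. The members whose calls were lost in some fit had edgeR, limma-voom or DESeq2 adjusted p up to 0.563 in WT at 6 h, 0.486 in WT at 3 d, 0.734 in WT at 15 d, and 0.201, 0.381 and 0.197 in GS at the same times.

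In intact striatum of both genotypes, levels were set per kb of exon so that genes could be compared. Lengths cover all GENCODE exons of a gene, and the annotation used for counting is unknown here. Ranks and sums per kb are therefore approximate. Timp2, the inhibitor that also takes part in activating pro-Mmp2, was the highest member, with a median of 55.5 CPM per kb over the 4 intact libraries. Adamts3, a procollagen N-propeptidase that also processes Vegfc and reelin, came next (28.5 CPM per kb), then Mmp17, a glycosylphosphatidylinositol-anchored Mmp (25.3 CPM per kb), and Adam22, a receptor of the synaptic protein Lgi1 that lacks protease activity (18.5 CPM per kb). Timp2 lay above the ranges of all others and Adam22 below those of Adamts3 and Mmp17, which overlapped each other. Timp3, Adam15, Adam23, Adam10, Adam9 and Adam11 followed at 15.3 to 12.8 CPM per kb, and Timp3, Adam15 and Adam23 overlapped in range. At the bottom were Adamts7 (0.0785 CPM per kb) and Mmp19 (0.0713 CPM per kb), which overlapped in range. The members with the largest later rises (Mmp19, Mmp2, Adamtsl3 and Adam8) were thus not among the abundant ones.

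Of the gelatinases, which cut denatured and basement membrane collagen, Mmp2 rose. Mmp9 passed in no comparison of the fit with 1 coefficient per group, but did in WT at 3 d with replicate number as a block. In WT, Mmp2 (mm10 chromosome 8, positions 92827290 to 92853421) was at 1.09 and 1.52 CPM intact, 0.887 and 0.921 at 6 h, 2.74 and 6.2 at 3 d, and 5.83 and 9.99 at 15 d. In GS, Mmp2 was at 2.5 and 0.907 CPM intact, 0.984 and 1.47 at 6 h, 4.52 and 6.68 at 3 d, and 8.75 and 12.2 at 15 d. All libraries at 3 d and 15 d lay above all intact ones of their genotype, and those at 6 h did not. Mmp2 rose by 1.78 ± 0.46 in WT and 1.72 ± 0.44 in GS at 3 d (edgeR adjusted p = 0.0106 and 0.00813), and by 2.60 ± 0.46 and 2.62 ± 0.45 at 15 d (edgeR adjusted p = 0.0011 and 0.000415). The 3 d call was lost in WT without WT intact replicate 1 (1.56, edgeR adjusted p = 0.102) or WT 3 d replicate 2 (1.07, edgeR adjusted p = 0.145). In GS it was lost without GS intact replicate 2 (1.16, edgeR adjusted p = 0.0888) or GS 3 d replicate 2 (1.41, edgeR adjusted p = 0.0779). Mmp9 lay between 0.263 and 1.63 CPM in all libraries, highest in WT 3 d replicate 1, with 1.31 ± 0.51 in WT (edgeR adjusted p = 0.069) and 0.67 ± 0.52 in GS (edgeR adjusted p = 0.344) at 3 d. Without WT 3 d replicate 2 the WT rise passed (1.89, edgeR adjusted p = 0.0146).

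Among the other secreted Mmps, Mmp19 showed the largest fitted change of any member. Mmp19, which cuts basement membrane proteins, had 10 to 19 counts in each intact library, or 0.338 and 0.282 CPM in WT and 0.171 and 0.222 CPM in GS. In WT, Mmp19 was at 0.307 and 0.83 at 6 h, 2.3 and 2.08 at 3 d, and 2.03 and 3.4 at 15 d. In GS, Mmp19 was at 1.62 and 0.592 at 6 h, 1.7 and 2.89 at 3 d, and 3.82 and 4.65 at 15 d. Every GS library after injury lay above both GS intact ones, and in WT this held from 3 d on. The change was 2.81 ± 0.51 in WT and 3.53 ± 0.55 in GS at 3 d (edgeR adjusted p = 0.00131 and 0.000231), and 3.11 ± 0.51 and 4.41 ± 0.54 at 15 d (edgeR adjusted p = 0.000694 and 3.16e-05). In GS it had passed at 6 h (2.49 ± 0.56, edgeR adjusted p = 0.0102), but not without GS intact replicate 1 (2.31, edgeR adjusted p = 0.075), GS intact replicate 2 (2.68, edgeR adjusted p = 0.0677) or GS 6 h replicate 1 (1.58, edgeR adjusted p = 0.153). Exons of Mmp19 share 22.3% of their length with Tmem198b on the opposite strand, and whether the counting used strand is unknown here. The rise from 6 h to 3 d in WT (1.95) was lost without WT 6 h replicate 1 (1.39, edgeR adjusted p = 0.0822).

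Mmp11, also called stromelysin-3, which is activated inside the cell by furin, rose from 0.819 and 0.676 CPM in intact WT to 1.36 and 1.12 at 6 h, 1.15 and 2.46 at 3 d, and 2.01 and 2.68 at 15 d. In GS, Mmp11 was at 0.94 and 0.633 CPM intact, 1.02 and 1.31 at 6 h, 1.24 and 1.52 at 3 d, and 1.9 and 3.41 at 15 d. The rise at 15 d passed in both genotypes (1.64 ± 0.38 in WT and 1.75 ± 0.38 in GS), and at 3 d in WT alone (1.27 ± 0.38, against 0.81 ± 0.38 in GS). The test of that difference did not pass. Mmp11 lost its WT call at 15 d without WT intact replicate 2 (1.51, edgeR adjusted p = 0.051) or WT 15 d replicate 2 (1.42, edgeR adjusted p = 0.0564). The 3 d call was lost without either WT intact replicate (1.42 and 1.14, edgeR adjusted p = 0.085 and 0.12) or WT 3 d replicate 2 (0.62, edgeR adjusted p = 0.323). Mmp23, a membrane-tethered Mmp without the usual haemopexin domain, went the other way, and against intact tissue it passed at 6 h only. In WT, Mmp23 was at 1.87 and 2.44 CPM intact, 0.818 and 0.722 at 6 h, 1.94 and 2.29 at 3 d, and 1.39 and 1.69 at 15 d. In GS, Mmp23 was at 2.44 and 3.3 CPM intact, 0.787 and 0.754 at 6 h, 2.14 and 1.76 at 3 d, and 1.62 and 2.32 at 15 d. The 4 libraries at 6 h were the lowest of the 16, with falls of -1.48 ± 0.27 in WT and -1.90 ± 0.26 in GS (edgeR adjusted p = 0.00928 and 0.000591). The level had risen again at 3 d against 6 h (1.46 ± 0.27 and 1.34 ± 0.27). Both libraries of GS 3 d, GS 15 d and WT 15 d still lay below the intact ones of their genotype, and these differences did not pass. The WT fall was lost without WT intact replicate 2 (-1.28) or either replicate of WT 6 h (-1.57 and -1.39), with edgeR adjusted p of 0.0621, 0.0523 and 0.12. Mmp28 (epilysin) passed only between 6 h and 3 d in GS (0.79 ± 0.26), and not without GS 6 h replicate 2 (0.62) or GS 3 d replicate 2 (0.31), with edgeR adjusted p of 0.181 and 0.399.

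The membrane-anchored Mmps split. Mmp14, the membrane-type enzyme that cuts collagen and activates pro-Mmp2, was at 10.2 and 10.8 CPM in intact WT, 10.2 and 11.7 at 6 h, 17 and 30.1 at 3 d, and 19.9 and 24.1 at 15 d. In GS, Mmp14 was at 11.3 and 9.46 CPM intact, 11.4 and 10.5 at 6 h, 24.1 and 30.5 at 3 d, and 20.9 and 25.4 at 15 d. Intact and 6 h libraries lay together, and all 8 later libraries lay above them. The rise was 1.16 ± 0.21 in WT and 1.39 ± 0.21 in GS at 3 d (edgeR adjusted p = 0.00129 and 0.000211) and 1.06 ± 0.21 and 1.16 ± 0.21 at 15 d. Mmp17 fell, from 154 and 155 CPM in WT and 180 and 183 CPM in GS intact to 96.6 to 129 CPM in all injured libraries, by -0.48 ± 0.09 in WT and -0.68 ± 0.09 in GS at 15 d. Its WT fall at 3 d (-0.34 ± 0.09) was lost without any 1 of the 4 libraries compared (edgeR adjusted p = 0.0629 to 0.0756). Mmp24, a neuronal membrane-type Mmp, fell by -0.28 ± 0.07 in WT and -0.40 ± 0.07 in GS at 15 d. Exons of Mmp24 share 13.6% of their length with BC029722 on the opposite strand. The WT fall of Mmp24 was lost without WT intact replicate 2 (-0.24) or WT 15 d replicate 2 (-0.22), with edgeR adjusted p of 0.0904 and 0.123. Mmp15, another membrane-type Mmp, fell against intact tissue at 6 h alone (-0.57 ± 0.13 in WT and -0.49 ± 0.13 in GS), and Mmp16 passed nowhere. Any of the 4 libraries left out ended the WT call of Mmp15 (-0.47 to -0.68, edgeR adjusted p = 0.0953 to 0.158). GS intact replicate 1 or GS 6 h replicate 1 ended the GS call (-0.39 each, edgeR adjusted p = 0.14 and 0.173). The summed level of the 11 Mmp genes was 47.6 to 54.8 CPM per kb in intact libraries and 42.6 to 47.1 CPM per kb at 15 d. Within it the share of Mmp2, Mmp14 and Mmp19 together was 3.5 to 4.94% in intact libraries, 9.68 to 18.2% at 3 d and 13.2 to 19.5% at 15 d.

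**Figure D2:**
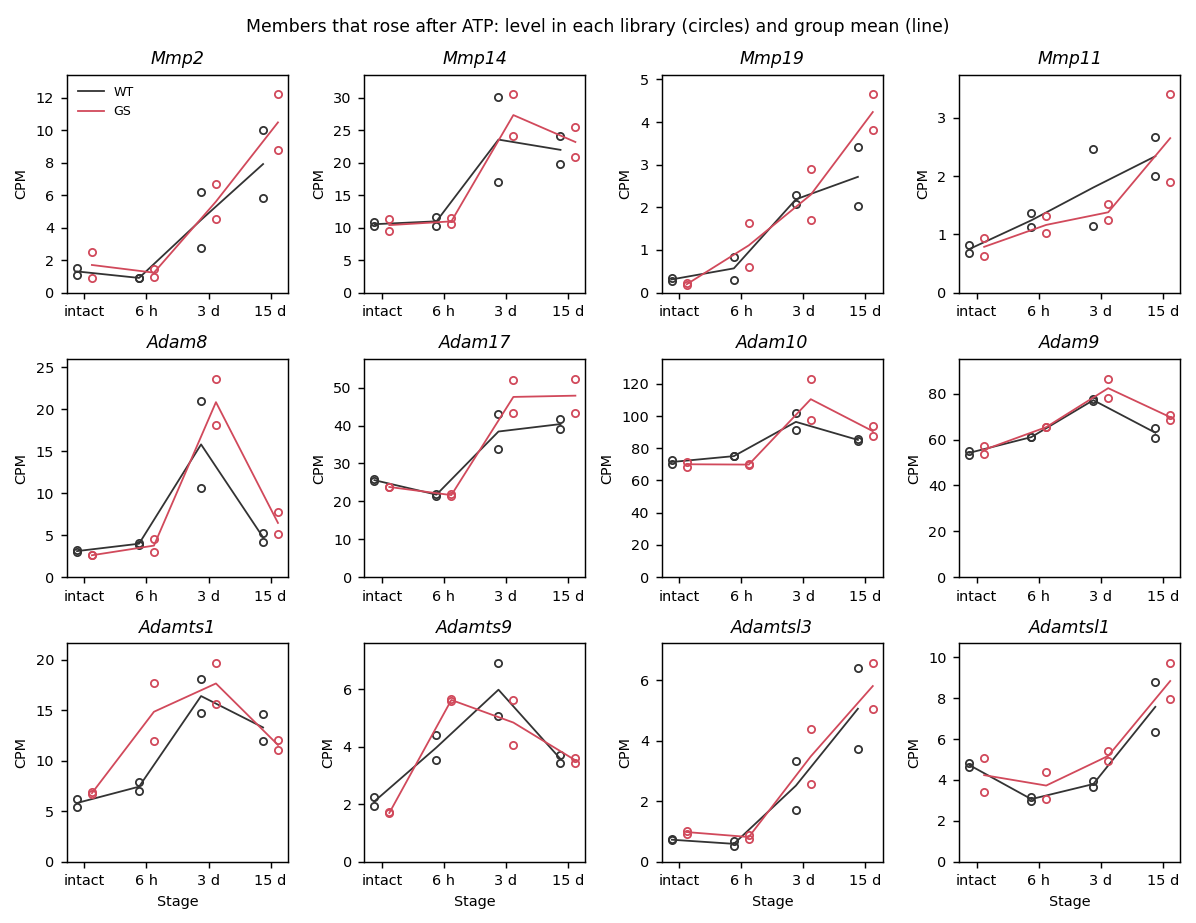
CPM of 12 genes that rose after ATP (1 panel each, y axis from 0) by stage, with circles for single libraries, lines through group means, WT in black and GS in red. Mmp2, Mmp19, Mmp11, Adamtsl3 and Adamtsl1 had their highest group mean at 15 d in both genotypes, and Adam8, Adam9, Adam10, Mmp14 and Adamts1 at 3 d.

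Among the Adams with a catalytic zinc site, 4 of 7 in the table rose at 3 d in both genotypes (beside 14.7% of all genes in WT and 18.6% in GS): Adam8, Adam9, Adam10 and Adam17. Adam8, which is expressed by leukocytes and activated microglia, was at 3.22 and 2.97 CPM in intact WT, 3.85 and 4.1 at 6 h, 10.7 and 21 at 3 d, and 4.15 and 5.31 at 15 d. In GS, Adam8 was at 2.62 and 2.58 CPM intact, 4.56 and 2.94 at 6 h, 18.1 and 23.6 at 3 d, and 5.18 and 7.73 at 15 d. The 4 libraries at 3 d stood above all others. Adam8 rose by 2.35 ± 0.30 in WT and 3.00 ± 0.30 in GS at 3 d (edgeR adjusted p = 0.000102 and 1.18e-05). It was lower at 15 d than at 3 d by -1.74 ± 0.29 and -1.69 ± 0.28 (edgeR adjusted p = 0.00698 and 0.0115). In WT that fall did not pass with only these groups fitted (-1.74, edgeR adjusted p = 0.132). It also did not pass with the choroid plexus score as a covariate (-1.43, edgeR adjusted p = 0.0818). Dropping the 3 WT libraries richest in cortical signal ended the WT call too (-1.57). In GS that fall did not pass without GS 3 d replicate 2 (-1.49, edgeR adjusted p = 0.119), GS 15 d replicate 1 (-1.43, edgeR adjusted p = 0.0947) or GS 15 d replicate 2 (-2.01, edgeR adjusted p = 0.0869). Against intact tissue Adam8 was still raised at 15 d in GS (1.31 ± 0.30, edgeR adjusted p = 0.00346) and did not pass in WT (0.61 ± 0.30). The GS call was lost without GS 15 d replicate 2 (0.99, edgeR adjusted p = 0.0511).

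Adam17, the sheddase that releases Tnf and ligands of the epidermal growth factor receptor, rose and stayed high. In WT, Adam17 was at 25.4 and 25.8 CPM intact, 22 and 21.5 at 6 h, 33.7 and 43.2 at 3 d, and 39.1 and 41.7 at 15 d. In GS, Adam17 was at 23.8 and 23.8 CPM intact, 21.3 and 22 at 6 h, 43.2 and 51.9 at 3 d, and 43.5 and 52.4 at 15 d. The libraries at 6 h were the lowest and those at 3 d and 15 d the highest, with no overlap. The rise was 0.59 ± 0.12 in WT and 1.00 ± 0.12 in GS at 3 d (edgeR adjusted p = 0.00221 and 3.01e-05) and 0.66 ± 0.12 and 1.01 ± 0.12 at 15 d (edgeR adjusted p = 0.00111 and 2.06e-05). It held in every alternative fit. The response in GS exceeded that in WT by 0.41 ± 0.16 at 3 d and 0.35 ± 0.16 at 15 d, neither of which passed (edgeR adjusted p = 0.463 and 0.881).

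Adam10, the sheddase of Notch, App and N-cadherin, was at 70.4 and 72.5 CPM in intact WT, 75.1 and 75.1 at 6 h, 91.2 and 102 at 3 d, and 85.8 and 84.5 at 15 d. In GS, Adam10 was at 68.4 and 71.7 CPM intact, 69.9 and 69.8 at 6 h, 97.8 and 123 at 3 d, and 93.7 and 87.5 at 15 d. These are smaller changes of a more abundant gene, 0.43 ± 0.09 in WT and 0.66 ± 0.09 in GS at 3 d (edgeR adjusted p = 0.00281 and 8.36e-05). At 15 d Adam10 passed in GS (0.37 ± 0.09) and lay at the threshold in WT (0.25 ± 0.09, edgeR adjusted p = 0.04998), where leaving out any of the 4 libraries compared ended the call (0.23 to 0.27, edgeR adjusted p = 0.116 to 0.202). Adam9, a related sheddase, rose by 0.51 ± 0.06 and 0.57 ± 0.06 at 3 d, and 0.24 ± 0.06 in GS at 6 h. At 15 d it was raised by 0.22 ± 0.06 in WT and 0.33 ± 0.06 in GS, and the WT call was lost without either WT intact replicate (0.19 and 0.24, edgeR adjusted p = 0.152 and 0.0585) or WT 15 d replicate 2 (0.17, edgeR adjusted p = 0.185). Adam15 fell in GS at 6 h (-0.28 ± 0.08), Adam19 fell in WT at 3 d (-0.38 ± 0.10) and in GS at 15 d (-0.30 ± 0.10). Adam12 passed nowhere. Exons of Adam15 share 20.6% of their length with 4731419I09Rik on the opposite strand. Each of the 4 libraries compared, when left out, ended the early GS calls of Adam9 (0.19 to 0.27, edgeR adjusted p = 0.0735 to 0.174) and Adam15 (-0.25 to -0.30, edgeR adjusted p = 0.117 to 0.201). The same held for the GS call of Adam19 (-0.24 to -0.37, edgeR adjusted p = 0.0574 to 0.197). The WT call of Adam19 was lost without WT intact replicate 2 or WT 3 d replicate 1 (-0.30 each, edgeR adjusted p = 0.118 each).

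The Adams of neurons that lack protease activity fell. Adam11 fell in all 4 comparisons from 3 d on (-0.65 ± 0.09 in WT and -0.64 ± 0.09 in GS at 3 d). Adam23, like Adam22 a partner of Lgi1, fell in GS at 3 d (-0.58 ± 0.11) and in both genotypes at 15 d (-0.40 ± 0.11 in WT and -0.68 ± 0.11 in GS). Adam22 fell in GS at 15 d (-0.32 ± 0.09). The GS call at 15 d was lost for Adam11 without GS intact replicate 1 (-0.25) or GS 15 d replicate 2 (-0.34), with edgeR adjusted p of 0.0995 and 0.054. That of Adam22 was lost without GS intact replicate 2 or GS 15 d replicate 2 (-0.28 each), with edgeR adjusted p of 0.0691 and 0.0831. The WT call of Adam23 was lost without either WT intact replicate (-0.41 and -0.38) or WT 15 d replicate 2 (-0.29), with edgeR adjusted p of 0.0758, 0.0797 and 0.18. Over the same stages the summed level of the 9 projection neuron markers went from 8206 to 10849 CPM in intact libraries to 6270 to 6884 at 15 d. Bulk RNA does not tell fewer cells of a type from less RNA per cell, and the part of neuron number in these falls was not tested. Of the reproductive tract Adams, Adam1a fell at 6 h in both genotypes (-0.57 ± 0.11 and -0.82 ± 0.11) and rose in GS at 15 d (0.37 ± 0.11). Its near copy Adam1b fell in GS at 6 h (-0.86 ± 0.22). Reads of Adam1a and Adam1b are uncertain, since GENCODE exons of Adam1a also share 63.7% of their length with Gm42878 and 24% with Mapkapk5 on the same strand. The WT call of Adam1a and the GS call of Adam1b at 6 h were lost without any 1 of the 4 libraries compared (edgeR adjusted p = 0.059 to 0.143 and 0.0789 to 0.125). The GS call of Adam1a at 15 d was lost without GS intact replicate 1 (0.31) or GS 15 d replicate 2 (0.32), with edgeR adjusted p of 0.114 and 0.11. Adam4, at 0.0538 to 1.02 CPM, passed only from 6 h to 3 d (2.01 ± 0.63 in WT and 1.85 ± 0.61 in GS). That call was lost without WT 6 h replicate 1 or either replicate of WT 3 d in WT (edgeR adjusted p = 0.205, 0.0762 and 0.0564). In GS it was lost without GS 6 h replicate 2 or GS 3 d replicate 2 (edgeR adjusted p = 0.194 and 0.109).

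Of the 7 hyalectanase Adamts, which cut the lecticans of the brain matrix, Adamts1 and Adamts9 rose most. Adamts9 was the only member to rise in all 6 comparisons with intact tissue. In WT, Adamts9 was at 1.94 and 2.25 CPM intact, 3.55 and 4.4 at 6 h, 6.91 and 5.07 at 3 d, and 3.45 and 3.7 at 15 d. In GS, Adamts9 was at 1.71 and 1.68 CPM intact, 5.61 and 5.65 at 6 h, 4.06 and 5.62 at 3 d, and 3.45 and 3.6 at 15 d. Every injured library lay above every intact one. The rise at 6 h was 0.92 ± 0.21 in WT (edgeR adjusted p = 0.0241) and 1.73 ± 0.21 in GS (edgeR adjusted p = 0.000226). At 3 d it was 1.51 ± 0.20 and 1.51 ± 0.21. The WT call at 6 h was lost without replicate 1 (0.82) or 2 (1.03) of WT intact, or 1 (1.07) or 2 (0.76) of WT 6 h, with edgeR adjusted p of 0.178, 0.0751, 0.0518 and 0.218. At 15 d Adamts9 was raised by 0.77 ± 0.21 in WT and 1.06 ± 0.21 in GS. The WT call was lost without WT intact replicate 1 (0.66, edgeR adjusted p = 0.114) or WT 15 d replicate 2 (0.72, edgeR adjusted p = 0.0836). Exons of Adamts9 share 9.2% of their length with A730049H05Rik on the opposite strand.

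Adamts1, a secreted proteoglycanase that also binds Vegf, was at 5.38 and 6.22 CPM in intact WT, 6.97 and 7.85 at 6 h, 18.1 and 14.7 at 3 d, and 12 and 14.6 at 15 d. In GS, Adamts1 was at 6.84 and 6.7 CPM intact, 17.7 and 12 at 6 h, 15.6 and 19.6 at 3 d, and 12 and 11.1 at 15 d. The GS libraries at 6 h stood well above the WT ones, and the genotypes overlapped at 3 d and met at 12 at 15 d. Adamts1 rose at 6 h in GS (1.13 ± 0.18, edgeR adjusted p = 0.00149) and did not pass in WT (0.35 ± 0.19, edgeR adjusted p = 0.305). At 3 d it rose by 1.5 ± 0.18 in WT and 1.38 ± 0.18 in GS. The difference of the 6 h responses was 0.78 ± 0.26 (95% interval 0.18 to 1.37), which did not pass (edgeR adjusted p = 0.39). Adamts1 (chromosome 16, 85793827 to 85803113) and Adamts5 (chromosome 16, 85858157 to 85901125) are neighbours in the mm10 genome. Adamts5, the aggrecanase of cartilage, changed less, by 0.43 ± 0.17 in WT (edgeR adjusted p = 0.0742) and 0.63 ± 0.17 in GS (edgeR adjusted p = 0.0104) at 3 d. At 15 d the values were 0.39 ± 0.17 and 0.56 ± 0.17. In WT the 3 d rise of Adamts5 passed without WT 3 d replicate 1 (0.62, edgeR adjusted p = 0.0332). The GS calls of Adamts5 were lost at 3 d without GS intact replicate 1 (0.53) or GS 3 d replicate 2 (0.60), with edgeR adjusted p of 0.0916 and 0.0565. At 15 d they were lost without GS intact replicate 1 (0.46) or either replicate of GS 15 d (0.58 and 0.55), with edgeR adjusted p of 0.131, 0.0614 and 0.0817.

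Adamts4, a proteoglycanase found in oligodendrocytes, was above intact at 15 d, by 0.52 ± 0.12 in WT and 0.39 ± 0.12 in GS, and at 3 d had values of -0.09 ± 0.12 and 0.26 ± 0.12. From 6 h to 3 d it rose in GS (0.53 ± 0.12, edgeR adjusted p = 0.00329), a call that held in every alternative fit, and not in WT (0.08 ± 0.12). The 7 oligodendrocyte lineage markers summed to 5914 to 6181 CPM in intact libraries and 7154 to 8425 CPM at 15 d, with 2 rising in WT and 3 in GS, and their part in the change of Adamts4 was not tested. The 15 d calls of Adamts4 were lost without WT intact replicate 2 (0.47) or WT 15 d replicate 2 (0.38) in WT, with edgeR adjusted p of 0.0508 and 0.0906. In GS they were lost without either GS intact replicate (0.41 and 0.37) or GS 15 d replicate 1 (0.34), with edgeR adjusted p of 0.0696, 0.0974 and 0.111. Adamts20 went up, down and up in GS (0.71 ± 0.15 at 6 h, -0.43 ± 0.16 at 3 d and 0.59 ± 0.15 at 15 d). At 6 h its call was lost without either GS intact replicate (edgeR adjusted p = 0.0585 and 0.0517). At 3 d it was lost without those 2 or GS 3 d replicate 2 (edgeR adjusted p = 0.0902, 0.168 and 0.381), and at 15 d without GS intact replicate 1 or GS 15 d replicate 2 (edgeR adjusted p = 0.056 and 0.098). Adamts8 and Adamts15 passed nowhere. The procollagen N-propeptidases fell or rose briefly. Adamts3 fell by -0.97 ± 0.09 in WT and -0.65 ± 0.09 in GS at 3 d (edgeR adjusted p = 1.74e-05 and 0.000106), after a rise in GS at 6 h (0.50 ± 0.09). At 15 d it was lower than intact by -0.71 ± 0.09 and -0.78 ± 0.09, and these 5 calls held in every alternative fit. In CPM it went from 187 and 162 in WT and 147 and 140 in GS intact to 83.3 to 117 in the 8 libraries of 3 d and 15 d, with no overlap. Adamts2 rose above intact in WT at 6 h only (0.69 ± 0.15), and not without any 1 of the 4 libraries compared (0.63 to 0.76). From 6 h to 3 d Adamts2 fell in WT (-0.81, edgeR adjusted p = 0.000875), a call that held in every alternative fit. In GS it fell by -0.54 in that step (edgeR adjusted p = 0.00895). The GS call was lost without GS 3 d replicate 2.

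Of the other Adamts genes, Adamts13, which cuts von Willebrand factor, was at 0.677 and 0.695 CPM in intact WT, 0.648 and 0.758 at 6 h, 0.394 and 0.293 at 3 d, and 0.201 and 0.413 at 15 d. In GS, Adamts13 was at 0.479 and 0.547 CPM intact, 0.623 and 0.538 at 6 h, 0.408 and 0.531 at 3 d, and 0.511 and 0.468 at 15 d. It fell in WT at 3 d (-1.0 ± 0.34, edgeR adjusted p = 0.042) and 15 d (-1.17 ± 0.35, edgeR adjusted p = 0.0245), neither of which held with DESeq2 (DESeq2 adjusted p = 0.116 and 0.067). In GS it did not pass. In WT the 3 d call was lost without any 1 of the 4 libraries (edgeR adjusted p = 0.063 to 0.223). The 15 d call was lost without either WT intact replicate or WT 15 d replicate 1 (edgeR adjusted p = 0.0832, 0.0763 and 0.187). Adamts16 fell in WT at 3 d (-0.80 ± 0.22) and rose in GS at 15 d (0.91 ± 0.22). The response of Adamts16 in GS minus that in WT at those times was 0.83 ± 0.31 and 0.78 ± 0.31, neither of which passed. Adamts6 rose in GS at 15 d (0.49 ± 0.14) and Adamts17 fell in GS at 3 d (-0.82 ± 0.26). Calls were lost for Adamts16 without WT intact replicate 1 or WT 3 d replicate 1 (-0.60 and -0.64, edgeR adjusted p = 0.152 and 0.106), and in GS without GS intact replicate 2 (0.60, edgeR adjusted p = 0.0694). Adamts6 lost its call without GS intact replicate 2 (0.30, edgeR adjusted p = 0.171) or GS 15 d replicate 1 (0.40, edgeR adjusted p = 0.104). Adamts17 lost it without either GS intact replicate (edgeR adjusted p = 0.104 and 0.0612) or GS 3 d replicate 2 (-0.43, edgeR adjusted p = 0.231). Adamts18 passed only from 6 h to 3 d (-1.11 ± 0.38 in WT and -1.42 ± 0.40 in GS). Leaving out either replicate of WT 6 h or WT 3 d replicate 1 ended the WT call (edgeR adjusted p = 0.169, 0.083 and 0.237). GS 6 h replicate 2 or GS 3 d replicate 2 left out ended the GS call (edgeR adjusted p = 0.0985 and 0.109). Adamts7 and Adamts10 passed nowhere.

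Adamts-like proteins share the matrix-binding parts of Adamts enzymes but have no protease domain. Adamtsl3 was at 0.73 and 0.714 CPM in intact WT, 0.665 and 0.505 at 6 h, 1.7 and 3.33 at 3 d, and 3.72 and 6.39 at 15 d. In GS, Adamtsl3 was at 0.923 and 1.03 CPM intact, 0.869 and 0.754 at 6 h, 2.56 and 4.4 at 3 d, and 5.05 and 6.56 at 15 d. The 6 h libraries were the lowest of each genotype and those of 15 d the highest, with those of 3 d between. The rise was 1.80 ± 0.37 in WT and 1.83 ± 0.36 in GS at 3 d (edgeR adjusted p = 0.00296 and 0.00127) and 2.80 ± 0.37 and 2.57 ± 0.36 at 15 d (edgeR adjusted p = 0.000157 and 9.04e-05). The WT call at 3 d was lost with the cortical score as a covariate (edgeR adjusted p = 0.0748).

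Adamtsl1 (punctin) was at 4.61 and 4.84 CPM in intact WT, 3.15 and 2.96 at 6 h, 3.63 and 3.96 at 3 d, and 6.36 and 8.79 at 15 d. In GS, Adamtsl1 was at 5.06 and 3.4 CPM intact, 3.07 and 4.38 at 6 h, 4.94 and 5.4 at 3 d, and 7.97 and 9.71 at 15 d. Libraries at 15 d were above all others in both genotypes (0.68 ± 0.22 in WT and 1.06 ± 0.22 in GS). The WT call of Adamtsl1 was lost without either WT intact replicate (0.64 and 0.71, edgeR adjusted p = 0.152 and 0.0988) or WT 15 d replicate 2 (0.43, edgeR adjusted p = 0.294). Adamtsl2, which binds latent TGF-beta binding protein, was at 3.03 and 1.33 CPM in intact WT, 1.35 and 1.95 at 6 h, 0.737 and 1.15 at 3 d, and 1.71 and 2.44 at 15 d. In GS, Adamtsl2 was at 2 and 1.33 CPM intact, 1.84 and 2.42 at 6 h, 0.718 and 1.19 at 3 d, and 1.71 and 1.66 at 15 d. The 4 libraries of 3 d were the lowest, and against intact tissue only the WT fall passed (-1.20 ± 0.39, edgeR adjusted p = 0.0356, against -0.81 ± 0.40 in GS). That call was lost without WT intact replicate 1 (-0.49, edgeR adjusted p = 0.486) or WT 3 d replicate 1 (-0.91, edgeR adjusted p = 0.192). From 6 h to 3 d Adamtsl2 fell in GS (-1.16 ± 0.40, edgeR adjusted p = 0.031), and not without GS 6 h replicate 2 (-0.95, edgeR adjusted p = 0.165) or GS 3 d replicate 1 (-0.84, edgeR adjusted p = 0.199). Adamtsl4, a fibrillin-binding protein, rose at 15 d (0.46 ± 0.16 in WT and 0.69 ± 0.15 in GS). Adamtsl5 fell in all 6 comparisons (-0.61 ± 0.14 in WT and -1.03 ± 0.14 in GS at 6 h, -0.46 ± 0.14 and -0.81 ± 0.14 at 15 d). Adamtsl4 lost its WT call at 15 d without WT intact replicate 1 (0.33) or WT 15 d replicate 2 (0.25), with edgeR adjusted p of 0.275 and 0.384. Adamtsl5 lost its WT call at 6 h without any 1 of the 4 libraries (edgeR adjusted p = 0.0571 to 0.256). At 3 d it was lost without WT intact replicate 1 or WT 3 d replicate 2 (edgeR adjusted p = 0.119 and 0.108), and at 15 d without WT intact replicate 1 or either replicate of WT 15 d (edgeR adjusted p = 0.19, 0.114 and 0.0727). Its GS calls held in every alternative fit.

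**Figure D3:**
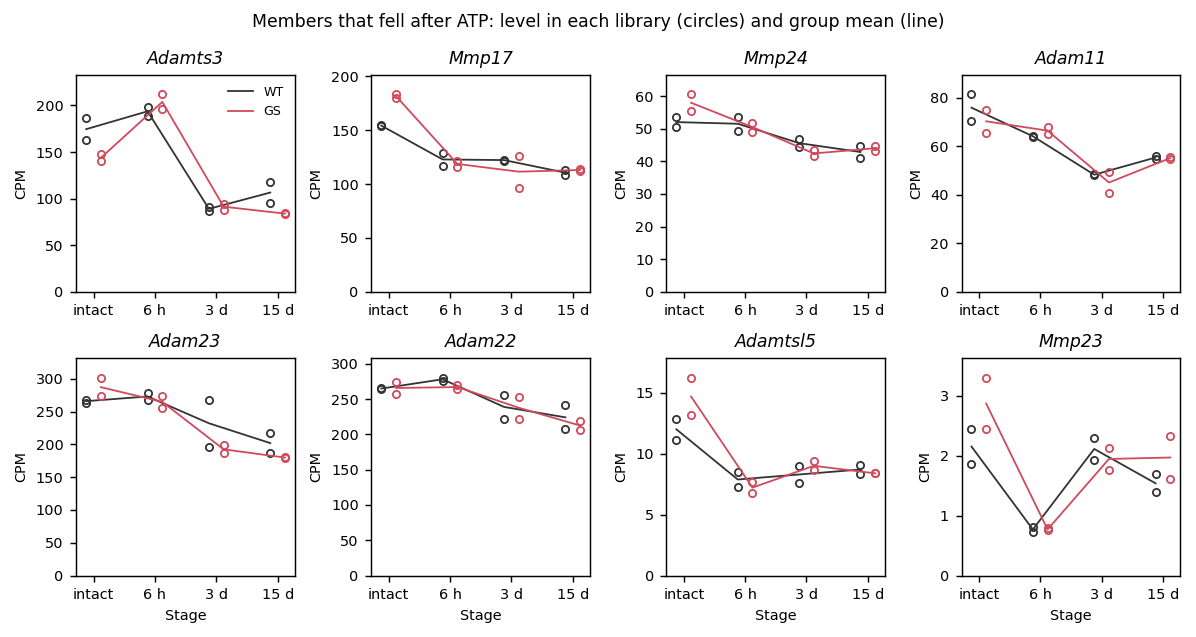
CPM of 8 genes that fell after ATP (1 panel each, y axis from 0) by stage, with circles for single libraries, lines through group means, WT in black and GS in red. Adamts3 fell between 6 h and 3 d, Adamtsl5 had fallen at 6 h in both genotypes and Mmp17 in GS, and Mmp23 was lowest at 6 h.

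Of the 3 Timps in the table Timp2 and Timp3 were abundant, Timp4 was lower (a median of 4.16 CPM per kb in intact libraries), and all changed by less than 2-fold. In WT, Timp2 was at 204 and 211 CPM intact, 237 and 250 at 6 h, 248 and 236 at 3 d, and 285 and 317 at 15 d. In GS, Timp2 was at 221 and 224 CPM intact, 258 and 239 at 6 h, 245 and 273 at 3 d, and 324 and 360 at 15 d. Every injured library was above the intact ones of its genotype, and those of 15 d were the highest. Timp2 rose at 15 d by 0.54 ± 0.08 in WT and 0.62 ± 0.08 in GS (edgeR adjusted p = 0.000265 and 3.63e-05), which held in every alternative fit. It rose by 0.22 ± 0.08 in each genotype at 3 d (edgeR adjusted p = 0.0481 and 0.0381). The 3 d call was lost in WT without any of the 4 libraries compared (edgeR adjusted p = 0.0793 to 0.229). In GS it was lost without either GS intact replicate or GS 3 d replicate 2 (edgeR adjusted p = 0.144, 0.113 and 0.277).

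Timp3, the matrix-bound inhibitor that also blocks Adam17, was at 126 and 124 CPM in intact WT, 127 and 118 at 6 h, 122 and 158 at 3 d, and 150 and 152 at 15 d. In GS, Timp3 was at 121 and 127 CPM intact, 124 and 120 at 6 h, 155 and 167 at 3 d, and 160 and 150 at 15 d. It rose in GS at 3 d (0.38 ± 0.09, edgeR adjusted p = 0.00596) and in both genotypes at 15 d (0.28 ± 0.09 in WT and 0.32 ± 0.09 in GS, edgeR adjusted p = 0.0405 and 0.015). Each of the 4 libraries ended the WT call at 15 d when left out (edgeR adjusted p = 0.0908 to 0.15), and GS intact replicate 1 or GS 15 d replicate 1 the GS call (edgeR adjusted p = 0.092 and 0.0989). In WT Timp3 passed at 3 d without WT 3 d replicate 1 (0.35, edgeR adjusted p = 0.00497). The GS call at 3 d was lost without GS intact replicate 1 (0.34, edgeR adjusted p = 0.0503) or GS 3 d replicate 2 (0.32, edgeR adjusted p = 0.0589). Exons of Timp3 share 21.3% of their length with Syn3, a synapsin gene on the opposite strand. Timp4 was at 20.7 and 22.7 CPM in intact WT, 19.1 and 20.4 at 6 h, 31.3 and 25.4 at 3 d, and 23.5 and 25 at 15 d. In GS, Timp4 was at 26.3 and 26.4 CPM intact, 23.8 and 24.5 at 6 h, 25.9 and 29.8 at 3 d, and 24.5 and 24.2 at 15 d. Timp4 rose from 6 h to 3 d in WT (0.53 ± 0.10, edgeR adjusted p = 0.00144), which held in every alternative fit, and had 0.21 ± 0.10 in GS (edgeR adjusted p = 0.122). Against intact tissue it passed in WT at 3 d (0.39 ± 0.10, edgeR adjusted p = 0.0115), and not without WT intact replicate 1 (0.32, edgeR adjusted p = 0.116) or WT 3 d replicate 1 (0.24, edgeR adjusted p = 0.131). Summed per kb, the 3 Timps stood at 71.3 to 77.6 CPM per kb in intact libraries and 95.7 to 114.9 CPM per kb at 15 d, above the 11 Mmp genes at both stages. Timp2 alone made up 73.46 to 74.52% of the Timp sum in intact libraries and 76.53 to 80.39% at 15 d. Timp1, Mmp3, Mmp8, Mmp10, Mmp12 and Mmp13 are outside these sums.

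**Figure D4:**
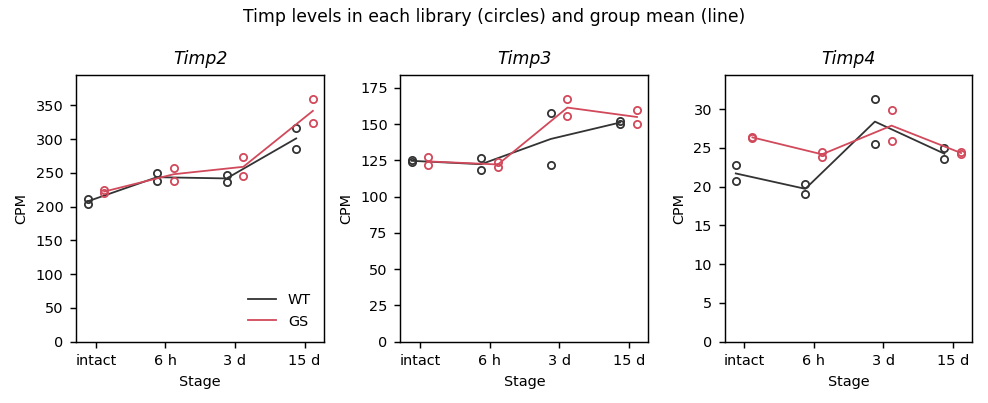
CPM of Timp2, Timp3 and Timp4 (y axes from 0) by stage, with circles for single libraries, lines through group means, WT in black and GS in red. Timp2 was highest at 15 d, with 285 and 317 CPM in WT and 324 and 360 CPM in GS.

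Most of the change fell between 6 h and 3 d. From 6 h to 3 d 16 members rose and 7 fell in WT (47.9%, beside 30.3% of all genes, 15.9% up and 14.3% down), and 15 rose and 9 fell in GS (50%, beside 39.1%, 19.9% up and 19.2% down). Between 3 d and 15 d only 6 passed in WT (4 rises and 2 falls, 12.5%, beside 1.63% and 1.57% of all genes and 3.2% in either direction) and 3 in GS (2 rises and 1 fall, 6.25%, beside 1.08%, 1.02% and 2.1%). In WT, Adam8 (-1.74 ± 0.29) and Adam9 (-0.29 ± 0.06) fell in that step and Adamts16 (0.93 ± 0.22), Adamts4 (0.61 ± 0.12), Adamtsl1 (0.99 ± 0.22) and Timp2 (0.32 ± 0.08) rose. In GS, Adam8 fell and Adamts20 (1.02 ± 0.16) and Timp2 (0.40 ± 0.08) rose. The count for WT was 4 and 1 without WT 15 d replicate 1 and 2, and 1 and 9 without WT 3 d replicate 1 and 2, and that for GS was 2, 0, 8 and 0 without the same libraries of GS. These steps share their 3 d libraries with the comparisons against intact tissue.

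The 10 genes that rose at both 3 d and 15 d in both genotypes were Adam9, Adam10, Adam17, Adamts1, Adamts9, Adamtsl3, Mmp2, Mmp14, Mmp19 and Timp2. The 4 that fell in the same 4 comparisons were Adam11, Adamts3, Adamtsl5 and Mmp17. The share of all genes called in all 4 comparisons was not counted, and the comparisons of a genotype share its intact libraries. As given above, Adam9, Adam10, Adamts9, Mmp2 and Timp2 each lost at least 1 of these calls when a single library was left out. The same was true of Adam11, Adamtsl5 and Mmp17 among the fallen genes. Of the 10, 7 have an upstream sequence in the RefSeq promoter table (GRCm38.p6, which is mm10). Sequences of 3 are shown, whose genes rose at 3 d and 15 d but differed at 6 h. Each is the 250 bases before the start that the table uses, which for these 3 is also the start of the RefSeq gene. Capitals mark the GC box, GGGCGG on either strand, and the TATA box, TATAAA on either strand.
Adamts1, minus strand, chr16:85803114-85803363: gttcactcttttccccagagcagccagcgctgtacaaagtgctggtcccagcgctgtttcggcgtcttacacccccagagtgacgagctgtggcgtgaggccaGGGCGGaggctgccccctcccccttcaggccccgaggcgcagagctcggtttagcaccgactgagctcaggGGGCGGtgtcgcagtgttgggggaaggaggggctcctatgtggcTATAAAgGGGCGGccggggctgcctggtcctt
Mmp14, plus strand, chr14:54431348-54431597: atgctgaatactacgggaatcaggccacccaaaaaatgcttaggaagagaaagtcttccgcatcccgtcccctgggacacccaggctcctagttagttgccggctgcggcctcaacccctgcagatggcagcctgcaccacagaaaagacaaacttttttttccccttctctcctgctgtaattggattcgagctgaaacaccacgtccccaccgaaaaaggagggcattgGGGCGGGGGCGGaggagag
Adam17, minus strand, chr12:21373633-21373882: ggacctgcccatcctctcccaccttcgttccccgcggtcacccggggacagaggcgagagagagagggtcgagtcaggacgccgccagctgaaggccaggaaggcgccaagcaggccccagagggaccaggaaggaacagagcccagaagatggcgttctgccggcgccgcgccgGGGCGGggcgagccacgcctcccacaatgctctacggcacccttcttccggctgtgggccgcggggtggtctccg
The Adamts1 sequence holds 3 GC boxes and a TATA box that begins 32 bases before the gene's start, Mmp14 holds 2 GC boxes and Adam17 holds 1. For others of the 7, such as Adam10, the table's start lies inside the RefSeq gene. A GC box was found in 7 of the 7 upstream sequences of the risen genes, in 21 of the 30 members that have such a sequence, and in 35.4% of 27025 genes. Of the 4 fallen genes, Adamts3 and Adamtsl5 have an upstream sequence, and each also holds 1 GC box. With so few sequences, whether the box sets the risen genes apart was not tested. The AP-1 motif TGANTCA, searched on both strands, was in none of the 7, in 1 of the 30 members (an upstream sequence of Adam19) and in 7.82% of all genes, and TATAAA in 1 of the 7 and 14.3% of all genes. These counts describe letters in short windows, and no factor's binding was measured.

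Lists of the wider pathway differed at 3 d, when 14.7% of all genes rose and 12.7% fell in WT and 18.6% rose and 16.4% fell in GS. All 8 genes of plasminogen activation in the table rose in GS and 6 of 8 in WT, among them Plau, which encodes urokinase and can start the activation of pro-Mmps through plasmin (3.30 ± 0.49 in WT and 3.24 ± 0.47 in GS). Others were its receptor Plaur (2.96 ± 0.33 and 1.83 ± 0.31) and Anxa2 (2.87 ± 0.27 and 2.72 ± 0.27). Of 12 membrane regulators, 3 rose and 2 fell in WT and 3 rose and 1 fell in GS. Rhbdf2, which carries Adam17 to the surface, rose by 2.45 ± 0.33 and 2.61 ± 0.32, Tspan14, which escorts Adam10, by 0.53 ± 0.14 and 0.73 ± 0.14. Reck, a membrane inhibitor of Mmps, fell by -0.69 ± 0.09 and -0.52 ± 0.09. Tspan17 fell in WT (-0.76 ± 0.16) and did not pass in GS (-0.25 ± 0.16). Of 4 proprotein convertases Furin rose in both (0.62 ± 0.13 and 0.61 ± 0.13) and Pcsk6 in GS (0.27 ± 0.10).

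Of 8 other proteinase inhibitors 3 rose in WT, and 3 rose and 2 fell in GS. A2m, the general protease trap, rose by 2.92 ± 0.49 in WT and 1.93 ± 0.48 in GS, Serping1 by 2.28 ± 0.27 and 1.41 ± 0.26. Serpina3n, an inhibitor of serine proteases made by reactive astrocytes, rose by 2.02 ± 0.19 and 1.97 ± 0.19, while Spock1 fell in GS (-0.37 ± 0.10). For the lecticans and link proteins, the substrates of the hyalectanases, 2 of 7 rose and 2 fell in WT and 3 rose and 1 fell in GS. Vcan (0.56 ± 0.11 and 0.73 ± 0.11) and Hapln1 (0.36 ± 0.13 and 0.77 ± 0.13) rose. Hapln4, a link protein of perineuronal nets, fell (-1.02 ± 0.28 and -0.77 ± 0.28), and Hapln2 fell in WT (-0.47 ± 0.12). Of 16 shed ligands and receptors, 11 rose in WT, and 10 rose and 4 fell in GS. Cd44 (2.26 ± 0.21 and 2.29 ± 0.21), Trem2 (1.75 ± 0.33 and 2.29 ± 0.33), Tnfrsf1b (1.91 ± 0.21 and 2.22 ± 0.21) and Tnfrsf1a (1.68 ± 0.18 and 1.58 ± 0.18) rose most in that list.

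Markers of several cell types moved over the same stages. The 8 microglia markers summed to 395 to 418.6 CPM in intact libraries, 272.3 to 307.4 at 6 h, 733.2 to 1424 at 3 d and 874 to 1750 at 15 d. Of the monocyte and macrophage list 4 of 8 genes were in the table, with 22.1 to 35 CPM intact, 100.3 to 316.5 at 3 d and 158.5 to 551.7 at 15 d. The 8 fibroblast and meninges markers went from 78.3 to 89.7 CPM intact to 102 to 146.9 at 3 d and 93 to 136.8 at 15 d. Of the neutrophil list 1 of 8 was in the table. The erythrocyte markers (4 of 5 in the table) all rose at 6 h in both genotypes, from 3.34 to 5.82 CPM in intact libraries to 27.7 to 58.9 CPM. The 6 astrocyte markers summed to 4180 to 4344 CPM intact and 5514 to 7079 CPM at 3 d, where 5 of 6 rose in each genotype. At 6 h 6 of 7 endothelium markers fell in GS and 1 in WT (beside 6.37% and 1.55% of all genes). Their summed level dropped in both genotypes. It went from 135.6 and 131.9 CPM intact to 87.6 and 73.1 CPM at 6 h in GS. In WT it went from 124.9 and 100.6 CPM to 90.2 and 81.4 CPM. The part of these cell types in the changes of the members was not tested. With the choroid plexus score as a covariate 8 of the 22 calls in WT at 15 d were kept. The summed choroid plexus and ependyma level was 56.5 and 114.3 CPM in WT intact and 222.2 and 311.7 CPM in WT 15 d. For Mmp2 that fit gave 1.96 in WT at 15 d (edgeR adjusted p = 0.161) and for Mmp14 1.14 (edgeR adjusted p = 0.09). In GS, with a summed choroid plexus and ependyma level of 413 and 91.1 CPM intact and 207.6 and 103 CPM at 15 d, 26 of the 48 members passed at 15 d in the same fit.

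The genotypes were also compared directly. None of the 48 members passed in edgeR between GS and WT in intact striatum (beside 0.0159% of all genes), at 6 h (0.00532%), at 3 d (0.0106%), at 15 d (0.00532%) or averaged over stages (0.0106%). At an unadjusted p under 0.05 there were 6, 4, 9, 4 and 7 members, and limma-voom gave 0 each time. DESeq2 gave 1, Adamts1 at 6 h, and 0 otherwise. The level of Adamts1 at 6 h was higher in GS by 1.00 ± 0.18 on the log2 scale (95% interval 0.59 to 1.42, edgeR adjusted p = 0.151, DESeq2 adjusted p = 0.000243). In edgeR it passed when only the 6 h groups were fitted (edgeR adjusted p = 0.0405) or without GS 6 h replicate 2 (1.25, edgeR adjusted p = 0.0226). At 3 d 3 members passed without WT 3 d replicate 2, namely Adam23 (-0.48), Adamts4 (0.65) and Timp3 (0.41), with edgeR adjusted p of 0.0426, 0.041 and 0.044.

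The difference between the GS and WT responses passed for no member at 6 h (beside 0.0106% of all genes), 3 d (0%) or 15 d (0%) in edgeR. There were 7, 7 and 2 members at an unadjusted p under 0.05, and DESeq2 and limma-voom gave 0. Without GS 3 d replicate 1 the 3 d difference passed for Mmp17 (-0.57, edgeR adjusted p = 0.0456). Intervals were wide where counts were low: at 15 d the response of Adamts13 differed by 1.11 (95% interval -0.02 to 2.23). At 3 d 11 members rose in both genotypes, 84.6% of the 13 in WT and 78.6% of the 14 in GS, beside 79.1% and 62.6% of the rising calls over all genes. At 15 d 15 did, 100% of the 15 in WT and 71.4% of the 21 in GS, beside 89.3% and 65.3%. The falling calls shared were 50% of the 8 in each genotype at 3 d, beside 62.9% in WT and 48.4% in GS over all genes, and 85.7% of 7 in WT and 75% of 8 in GS at 15 d, beside 79.4% and 50.4%. A call in 1 genotype alone does not show a difference between them.

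**Figure D5:**
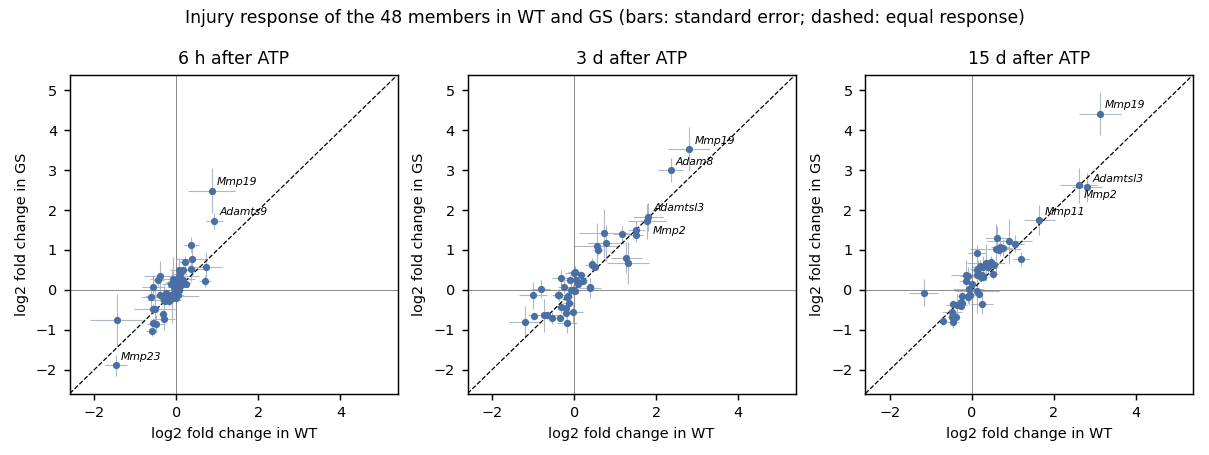
Log2 fold change in GS (y axis) against WT (x axis) for the 48 genes at 6 h, 3 d and 15 d after ATP, each against intact tissue of the same genotype, with bars for standard errors and a dashed line for an equal response. Mmp19 at 15 d lies at 3.11 in WT and 4.41 in GS, and no gene's difference from the line passed the test.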

How the data were processed

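The authors deposited 1 table of raw counts for bulk striatal RNA, per the file headers. Per the labels' protocols, RNeasy total RNA went into a TruSeq kit. The submitters' processing notes name FastQC 0.11.7 and mm10, while aligner, counter and strand setting were not given in the sources used here. Columns named NT, which match no label word for word, were read as WT since no other samples remained. Tests used edgeR 4.0.16 (R 4.3.3): filterByExpr by group (18813 of 19457 genes kept), TMM factors (0.947 to 1.03), 1 coefficient per group over all 16 libraries, glmQLFTest for 18 contrasts, Benjamini-Hochberg adjustment over all genes tested. Standard errors were derived from the F statistic. p-values measure the spread between labelled biological replicates (their chi-square over genes was 10.0 to 33.7 times its degrees of freedom). The fit was tested on simulated data. The members, lists, tests and alternatives (RLE factors, DESeq2 1.42.0, limma-voom from limma 3.58.1, filters, covariates, block, libraries left out) were chosen with earlier results of these data known. Named were all members that passed in any contrast and 12 fixed ones, with all libraries for Timps, Mmp2, Mmp14, Adam10, Adam17 and the 12 largest changes. Exon lengths and overlaps came from GENCODE M21, and positions, 1-based, from RefSeq for all 48 members.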

Additional observations from a re-analysis of the deposited data

Results flagged for a closer look

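For 2 genes both injured libraries of 1 genotype lay above its intact libraries while both of the other lay below theirs. Neither difference passed the test of the GS response minus the WT response. With 2 libraries per group such a separation can arise without a difference in response. The share of all genes that show it was not counted. Adamts6 at 6 h was at 8.76 and 8.43 CPM in WT (12.5 and 10.8 CPM intact) and at 9.66 and 10.2 CPM in GS (9.57 and 7.17 CPM intact), a difference in response of 0.68 ± 0.20 (edgeR adjusted p = 0.331). Timp4 at 15 d was at 23.5 and 25 CPM in WT (20.7 and 22.7 CPM intact) and at 24.5 and 24.2 CPM in GS (26.3 and 26.4 CPM intact), a difference of -0.27 ± 0.14 (edgeR adjusted p = 0.881). In both the intact libraries of the genotypes also differed without overlap, by -0.48 ± 0.14 for Adamts6 and 0.28 ± 0.10 for Timp4 (GS minus WT, edgeR adjusted p = 0.293 and 0.355).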

How the results depend on the processing

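Depth was high and 2 libraries per group set the precision. No named member's call reversed, and RLE factors, limma-voom and the filters left all counts of members called within 1.5 times. In WT at 6 h (6 members called) 3 were called with the choroid plexus score as a covariate and 0 without the 3 WT libraries that had the most cortical marker signal. In WT at 3 d (21) 10 were called with the cortical score and 11 without those libraries, and at 15 d (22) 8 with the choroid plexus score and 11 without those libraries. For 15 d against 3 d the WT count of 6 was 0 with only these groups fitted, 3 and 0 with the cortical and choroid plexus scores, and 1 without those libraries, and the GS count of 3 was 7 with DESeq2, 5 with only these groups and 5 with the replicate block. Between genotypes at 6 h (0) DESeq2 and the fit of these groups alone gave 1 each. The cause of these shifts was not tested. Leaving out 1 library of the groups compared gave 0 to 1 (WT 6 h), 12 to 17 (WT 3 d), 12 to 19 (WT 15 d), 8 to 10 (GS 6 h), 15 to 24 (GS 3 d), 22 to 24 (GS 15 d), 17 to 21 and 17 to 24 (3 d against 6 h in WT and GS), 1 to 9 and 0 to 8 (15 d against 3 d), 0 to 1 and 0 to 3 (genotype at 6 h and 3 d) and 0 to 1 (response at 3 d), with a lone library assumed to vary like the other groups. Replicate numbers share no stated source, and deviations of equal numbers correlated at -0.144 to 0.288 between groups, over 0.1 in 6 of 28 pairs. With the replicate block the counts were 6, 22 and 22 in WT and 13, 22 and 29 in GS at 6 h, 3 d and 15 d. The block also brought Mmp9 past the threshold in WT at 3 d (1.28, edgeR adjusted p = 0.0489) and changed no other named member's call against intact tissue.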
